A study of Mus musculus with 8 samples.

Results

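The genes described here are 10 mouse chemokine ligands, Cxcl1, Cxcl2, Cxcl5, Cxcl10, Cxcl12, Cxcl16, Ccl2, Ccl7, Ccl20 and Cx3cl1, taken by symbol from the 25413 genes of the deposited count table. They were measured by RNA sequencing of polyadenylated RNA from spheroids, rounded cell aggregates, of 2 mouse mammary lines. The 4 groups were EpH4-AS with PM2.5, untreated EpH4-AS, EpH4 with PM2.5 and untreated EpH4, each with 2 libraries. The labels give EpH4-AS the genotype AS-transformed and call the line malignantly transformed, and give EpH4 the genotype WT. Both are cell lines labelled as mammary gland epithelium. PM2.5 is fine airborne particulate matter, and its dose and exposure time are not given in the labels used here. The labels name no promoter or Cre, and do not say whether a line is 1 clone. Nor do they say that paired libraries were grown as separate cultures, so every p value here covers the spread among libraries only, and that spread may be technical.

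Chemokines are small secreted proteins that bind receptors coupled to G proteins and set the direction in which leukocytes migrate. Cxcl1, Cxcl2 and Cxcl5 attract neutrophils through Cxcr2, Cxcl10 attracts activated T cells through Cxcr3, and Cxcl12 keeps leukocytes and stem cells in place through Cxcr4. Ccl2 and Ccl7 attract monocytes through Ccr2, and Ccl20 attracts dendritic and T helper cells through Ccr6. Cxcl16 and Cx3cl1 are made as membrane-bound proteins on a mucin stalk and are released by the proteases Adam10 and Adam17. In epithelium and stroma, transcription of many inflammatory chemokines is switched on by NF-kB, that of Cxcl10 also by interferon signalling, and several of their mRNAs are short-lived because of AU-rich elements in the 3′ untranslated region.

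Total counts per library ran from 15393256 to 27765982, and were lower in all 4 EpH4-AS libraries than in all 4 EpH4 libraries. Levels are in CPM, counts scaled by TMM to a common library total, given for both libraries of a group or as mean ± SD (n = 2), and log2 fold changes carry a standard error and the adjusted p of edgeR's quasi-likelihood test over 13716 genes, called when under 0.05. The labelled epithelial identity was not borne out by its luminal markers. The 10 luminal epithelial markers summed to 1.87 to 1.95 CPM in EpH4-AS with PM2.5, 2.17 to 2.59 CPM in untreated EpH4-AS, 0.876 to 0.986 CPM in EpH4 with PM2.5 and 0.436 to 0.716 CPM in untreated EpH4. Cdh1, the epithelial cadherin, averaged at most 0.134 CPM in any group, and Epcam was at 0 in all 4 EpH4 libraries. The 8 basal epithelial markers summed to 2.63 to 2.88 CPM in EpH4-AS with PM2.5 and 3.73 to 4.33 CPM in untreated EpH4-AS. In EpH4 they summed to 9.79 to 9.86 CPM with PM2.5 and 4.93 to 5.13 CPM untreated, mostly from Krt14. The 10 fibroblast markers summed to 424.5 to 429 CPM in EpH4-AS with PM2.5, 599 to 600.03 CPM in untreated EpH4-AS, 2506 to 2718 CPM in EpH4 with PM2.5 and 2464 to 2878 CPM in untreated EpH4. Col1a2 and Dcn made up most of the sum in EpH4, where Col3a1, Lum, Thy1 and Fbln1 averaged at most 1.20 CPM. In bulk RNA, fewer cells of a type and less RNA per cell cannot be told apart.

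The neutrophil ligands lie together on chromosome 5, and 3 genes there carry the same NF-kB consensus letters shortly before their start, so these sequences are given first. Each is the stretch that ends at the base before the annotated start, from RefSeq (GRCm38.p6, plus strand), with the matches to the NF-kB consensus, which overlap on the 2 strands, in capitals:
Cxcl1, chr5:90891155-90891244: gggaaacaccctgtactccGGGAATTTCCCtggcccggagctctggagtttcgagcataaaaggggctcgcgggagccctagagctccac
Cxcl2, chr5:90903789-90903898: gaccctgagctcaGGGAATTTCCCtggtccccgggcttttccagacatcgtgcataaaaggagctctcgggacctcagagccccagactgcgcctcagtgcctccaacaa
Cxcl3, chr5:90786011-90786100: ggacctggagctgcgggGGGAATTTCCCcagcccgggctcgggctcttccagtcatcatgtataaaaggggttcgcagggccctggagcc

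The 10 bases GGGAATTTCC began 71 bases before the start of Cxcl1, 97 before that of Cxcl2 and 73 before that of Cxcl3, the near relative of Cxcl1 that is not among the 10 ligands. On either strand, these letters were found in 29 of 32851 mouse promoter windows of 250 bases before to 50 after a start, a share of 0.0883%. The 10 letters were read from the Cxcl1 promoter itself, so its match was certain. The 0.0883% is therefore a description and not a background fixed beforehand. The NF-kB consensus, of which these letters are 1 form, was found in 4.51% of windows. The promoter table held 6 of the 10 ligands, without Cxcl5, Cxcl16, Ccl2 and Ccl7. Among the 6, Ccl20 held a match to the consensus 80 bases before its start, Cxcl10 held 2, and Cxcl12 and Cx3cl1 held none in this window. A match is a description of letters and was not tested as a binding site.

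Of the 10 ligands, Cxcl1 and Cxcl2 held the densest runs of the AU-rich 7-mer TATTTAT in their 3′ untranslated regions (GENCODE M21, GRCm38, transcript strand, overlapping matches counted). Cxcl1 had 6 matches in 592 bases, a density reached by 0.116% of 19841 genes with such a region of at least 100 bases, and Cxcl2 had 7 in 1494 bases, a density reached by 0.811%. Cxcl3 had 2 in 645 bases, while Cxcl5, Ccl20, Cxcl12 and Cx3cl1 had 1 each and Cxcl10, Cxcl16, Ccl2 and Ccl7 had 0. Of the 19841 genes, 29.0% held at least 1 match. The densest 30 bases of each are shown with the matches in capitals, from base 80 and base 880 of the region:
Cxcl1: agggtccTATTTATTTATgTATTTATTTAT
Cxcl2: actTATTTATTTATctatgTATTTATTTAT

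Among those of the 10 ligands with counts in both EpH4-AS groups, Cxcl1 had the largest PM2.5 response in that line. Cxcl1 (ENSMUSG00000029380, chromosome 5, 91039100 to 91040974, GRCm39, plus strand) was at 127 and 142 CPM in EpH4-AS with PM2.5, against 19.0 and 21.2 CPM in untreated EpH4-AS. It was at 387 and 377 CPM in EpH4 with PM2.5, against 209 and 252 CPM in untreated EpH4. The libraries with PM2.5 lay above the untreated ones in both lines without overlap, and all 4 EpH4-AS libraries lay below all 4 EpH4 libraries. The rise was 6.69-fold in EpH4-AS (log2 2.74 ± 0.10, adjusted p = 9.02e-10) and 1.66-fold in EpH4 (log2 0.73 ± 0.08, adjusted p = 1.95e-05). The test of the difference between the lines, the interaction, gave log2 2.01 ± 0.13 (adjusted p = 8.4e-07).

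Cxcl2 (ENSMUSG00000058427, chromosome 5, 91051730 to 91053797), the next listed chemokine ligand after Cxcl1 and also a Cxcr2 ligand, was near the limit of detection. It had 7 and 9 counts in EpH4-AS with PM2.5 and 0 and 0 in untreated EpH4-AS. In EpH4 it had 11 and 4 counts with PM2.5 and 5 and 12 untreated, and these overlapped. Against a floor of 3 counts over the group of 2 libraries, Cxcl2 was 4.86-fold higher with PM2.5 in EpH4-AS (adjusted p = 0.0264). This fold takes the count of the higher group as exact, so it is no lower bound. The call was lost without any 1 of the 4 EpH4-AS libraries.

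Cxcl5 (ENSMUSG00000029371, chromosome 5, 90907219 to 90909483), the third neutrophil ligand, had the opposite order of response. It was at 4.03 and 4.99 CPM in EpH4-AS with PM2.5 and at 5.18 and 4.43 CPM in untreated EpH4-AS. In EpH4 it was at 240.5 and 211 CPM with PM2.5, against 71.2 and 81.3 CPM untreated. The EpH4-AS groups overlapped, and the EpH4 groups did not. Cxcl5 rose 2.97-fold in EpH4 (log2 1.57 ± 0.08, adjusted p = 5.14e-08) and had log2 -0.09 ± 0.19 in EpH4-AS (adjusted p = 0.836), and the interaction was -1.66 ± 0.21 (adjusted p = 0.000219).

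Cxcl3, which lies between Cxcl5 and Cxcl1 in this cluster, was at 2.39 and 2.55 CPM in EpH4-AS with PM2.5, against 0.241 and 0.253 CPM in untreated EpH4-AS. It was at 0.914 and 0.863 CPM in EpH4 with PM2.5, against 0.145 and 0.318 CPM in untreated EpH4. The groups with PM2.5 lay above the untreated ones in each line, by log2 3.30 ± 0.42 in EpH4-AS (adjusted p = 0.000237) and 1.94 ± 0.43 in EpH4 (adjusted p = 0.00449), and the interaction was not called (1.36 ± 0.70, adjusted p = 0.228). With PM2.5, Cxcl3 was higher in EpH4-AS than in EpH4 (log2 1.47 ± 0.30, adjusted p = 0.000289), the reverse of Cxcl1. The cluster, in which only the chemokine ligands listed here were counted (7 genes), also holds Ppbp, Pf4 and Cxcl15. Cxcl2 starts 10755 bases past the end of Cxcl1. Pf4 and Cxcl15 had 0 or 1 count per library, and Ppbp averaged at most 0.911 CPM, in EpH4 with PM2.5.

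**Figure D1:**
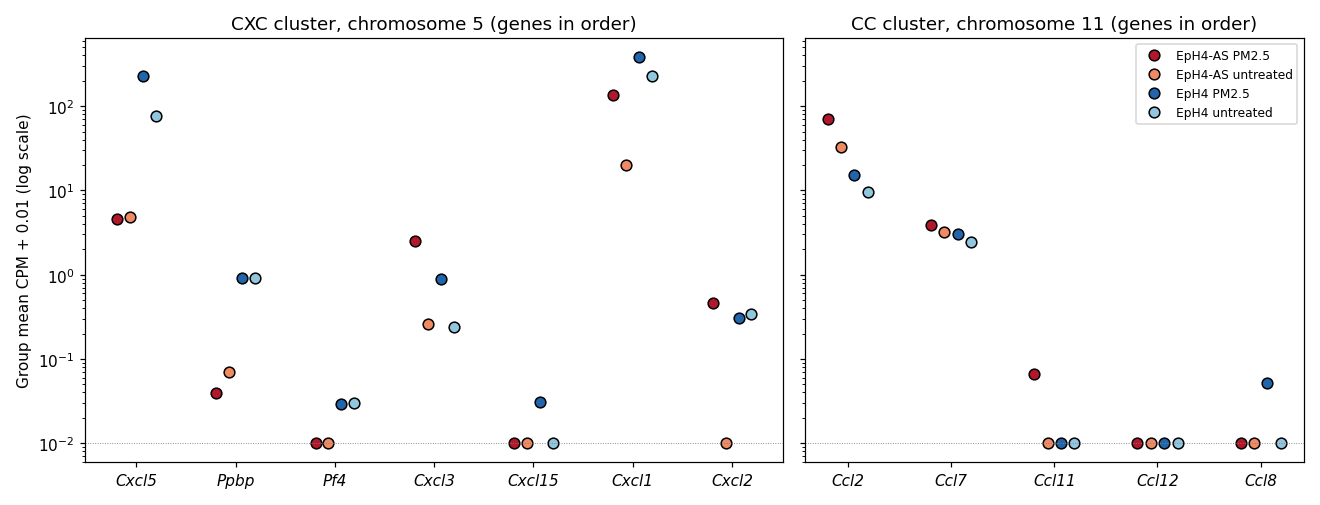
Group mean level of each listed chemokine ligand of the CXC cluster on chromosome 5 (7 genes, left) and the CC cluster on chromosome 11 (5 genes, right), in the order in which they lie, as CPM plus 0.01 on a log axis, with the dotted line at 0 CPM. Each point is the mean of 2 libraries, and Cxcl1 and Cxcl5 stand above their neighbours in EpH4, as Cxcl1 and Ccl2 do in EpH4-AS.

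Cxcl10, the interferon-inducible T cell attractant, responded in EpH4. Its 225 bases before the start are shown because they hold motifs of 2 kinds, in capitals: an interferon-type repeat (the letters TTTC, any 2 bases, and TTTC again, read on the strand opposite to the gene, 213 bases before the start) and 2 NF-kB consensus matches (159 and 103 bases before). The sequence is on the minus strand of GRCm38.p6:
Cxcl10, chr5:92348890-92349114: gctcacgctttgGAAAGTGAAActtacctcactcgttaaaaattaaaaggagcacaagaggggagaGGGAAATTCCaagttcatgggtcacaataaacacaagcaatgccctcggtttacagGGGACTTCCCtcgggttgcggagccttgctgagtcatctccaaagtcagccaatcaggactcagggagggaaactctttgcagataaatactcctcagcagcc
The repeat was found in 3.44% of all windows. An AP-1 motif (TGANTCA, in 7.81% of windows) also lay 74 bases before the start and shared bases with a match to the NRF2 antioxidant element (TGACNNNGC, in 12.4%). The other promoters of the set, searched on both strands, held no match to these 3 motifs.

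Cxcl10 (ENSMUSG00000034855, chromosome 5, 92494497 to 92496748, minus strand) was at 0.0584 and 0.217 CPM in EpH4-AS with PM2.5 and at 0.301 and 0.126 CPM in untreated EpH4-AS, which is 1 to 5 counts per library. It was at 5.26 and 6.45 CPM in EpH4 with PM2.5, against 1.82 and 1.11 CPM in untreated EpH4. The EpH4 groups did not overlap, and the rise was 3.95-fold (log2 1.98 ± 0.25, adjusted p = 7.82e-05). In EpH4-AS the log2 fold change was -0.60 ± 0.92 (adjusted p = 0.752), and the interaction of -2.58 ± 0.99 missed the threshold (adjusted p = 0.101), though it was called without EpH4 untreated replicate 1 (-2.98, adjusted p = 0.0377). Cxcl10 overlaps Art3 on the other strand, and the sources used here do not say whether counting used strand, so its reads may include those of Art3.

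Cxcl12 (ENSMUSG00000061353, chromosome 6, 117145496 to 117158328), the homeostatic ligand of stromal cells, fell with PM2.5 in EpH4-AS. It was at 4.49 and 4.34 CPM in EpH4-AS with PM2.5, against 8.73 and 10.3 CPM in untreated EpH4-AS. In EpH4 it was at 135 and 157 CPM with PM2.5 and at 141 and 113.5 CPM untreated, which overlapped. The fall in EpH4-AS was log2 -1.10 ± 0.20 (adjusted p = 0.00333), a call lost without EpH4-AS untreated replicate 2 (adjusted p = 0.0556). On log2(RPKM + 1) limma-trend gave -0.52 (adjusted p = 0.0774). In EpH4 Cxcl12 had log2 0.20 ± 0.09 (adjusted p = 0.127), with 0.36 (adjusted p = 0.00204) without untreated replicate 1 and 0.30 (adjusted p = 0.0343) without PM2.5 replicate 1. The interaction was -1.30 ± 0.22 (adjusted p = 0.00155), and -0.71 by limma-trend on log2(RPKM + 1) (adjusted p = 0.0755). Of 8 fibroblast markers tested, 3 (Col3a1, Lum and Dcn) also fell in EpH4-AS with PM2.5 and 5 were not called. Over all genes 4.75% were called lower there. Between untreated lines, 2 of the 8 were higher in EpH4-AS (Col3a1, log2 5.88, and Lum, 2.43) and 6 were lower, as Cxcl12 was. The part of these markers in the fall of Cxcl12 was not tested.

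Cx3cl1 (fractalkine, ENSMUSG00000031778, chromosome 8, 95498637 to 95509055) fell with PM2.5 in both lines by small amounts. It was at 13.4 and 16.8 CPM in EpH4-AS with PM2.5, against 20.7 and 21.4 CPM in untreated EpH4-AS, and at 300.9 and 327 CPM in EpH4 with PM2.5, against 375 and 341 CPM in untreated EpH4. In both lines the libraries with PM2.5 lay below the untreated ones. The fall was log2 -0.47 ± 0.11 in EpH4-AS (adjusted p = 0.0135; 0.107 to 0.154 without EpH4-AS PM2.5 replicate 1 or either untreated library, 0.0629 and 0.0782 by limma-trend). In EpH4 it was -0.19 ± 0.07 at the edge of the threshold (adjusted p = 0.0496), and 11 of 17 other settings did not call it (adjusted p 0.0567 to 0.387).

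Cxcl16 (ENSMUSG00000018920, chromosome 11, 70344809 to 70350810, minus strand), the other membrane-bound ligand, had 24 and 19 counts in EpH4-AS with PM2.5 and 17 and 14 in untreated EpH4-AS. It had 6 and 4 counts in EpH4 with PM2.5 and 3 and 5 in untreated EpH4. It was not called with PM2.5 in either line (EpH4-AS log2 0.34 ± 0.37, adjusted p = 0.629, and EpH4 0.37 ± 0.66, adjusted p = 0.738). Cxcl16 overlaps Zmynd15 on the other strand, so its reads may include those of Zmynd15. Of the 10 to 12 reads assigned to the whole gene per EpH4 library, 50 to 70% lay outside annotated exons. In EpH4-AS that share was 0 to 7.69%, and for Cxcl10 it was at most 0.633% in any library. What these reads are was not tested.

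Ccl2 (ENSMUSG00000035385, chromosome 11, 81926397 to 81928279), the main monocyte attractant, rose with PM2.5 in both lines. It was at 69.5 and 71.2 CPM in EpH4-AS with PM2.5, against 33.6 and 31.2 CPM in untreated EpH4-AS. In EpH4 it was at 15.5 and 14.8 CPM with PM2.5, against 11.8 and 7.24 CPM untreated. The groups with PM2.5 lay above the untreated ones in both lines, and all EpH4-AS libraries lay above all EpH4 libraries, the reverse of Cxcl1. The rise was 2.17-fold in EpH4-AS (log2 1.12 ± 0.12, adjusted p = 4.68e-05) and 1.58-fold in EpH4 (log2 0.66 ± 0.15, adjusted p = 0.00477). The EpH4 value rests on which untreated library is kept: log2 1.06 without replicate 1 (adjusted p = 1.73e-06) and 0.36 without replicate 2 (adjusted p = 0.0191). It was not called by limma-trend on RPKM (adjusted p 0.0794 and 0.0853). The interaction, 0.46 ± 0.19, was not called (adjusted p = 0.135), but was without EpH4 untreated replicate 2 (0.75, adjusted p = 0.000519).

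Ccl7 (ENSMUSG00000035373, chromosome 11, 81936538 to 81938351), which starts 8258 bases past the end of Ccl2 and shares its receptor, was at 3.27 and 4.56 CPM in EpH4-AS with PM2.5 and at 3.79 and 2.53 CPM in untreated EpH4-AS. It was at 2.74 and 3.29 CPM in EpH4 with PM2.5 and at 2.54 and 2.27 CPM in untreated EpH4. It was not called in any of the 5 comparisons, with log2 0.31 ± 0.24 (adjusted p = 0.489) for PM2.5 in EpH4-AS and 0.32 ± 0.23 (adjusted p = 0.346) in EpH4. The 3 other ligands of this CC cluster, Ccl11, Ccl12 and Ccl8, had 0 to 2 counts per library.

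Ccl20 (ENSMUSG00000026166, chromosome 1, 83094487 to 83096888) had 2 and 2 counts in EpH4-AS with PM2.5, 1 and 0 in untreated EpH4-AS, 2 and 0 in EpH4 with PM2.5 and 0 and 1 in untreated EpH4. It did not pass the filter on low counts. Its ratio with PM2.5 over untreated in EpH4-AS, 3.65 with an exact 95% counting interval of 0.361 to 179.6, means that a difference was not detectable at this depth.

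**Figure D2:**
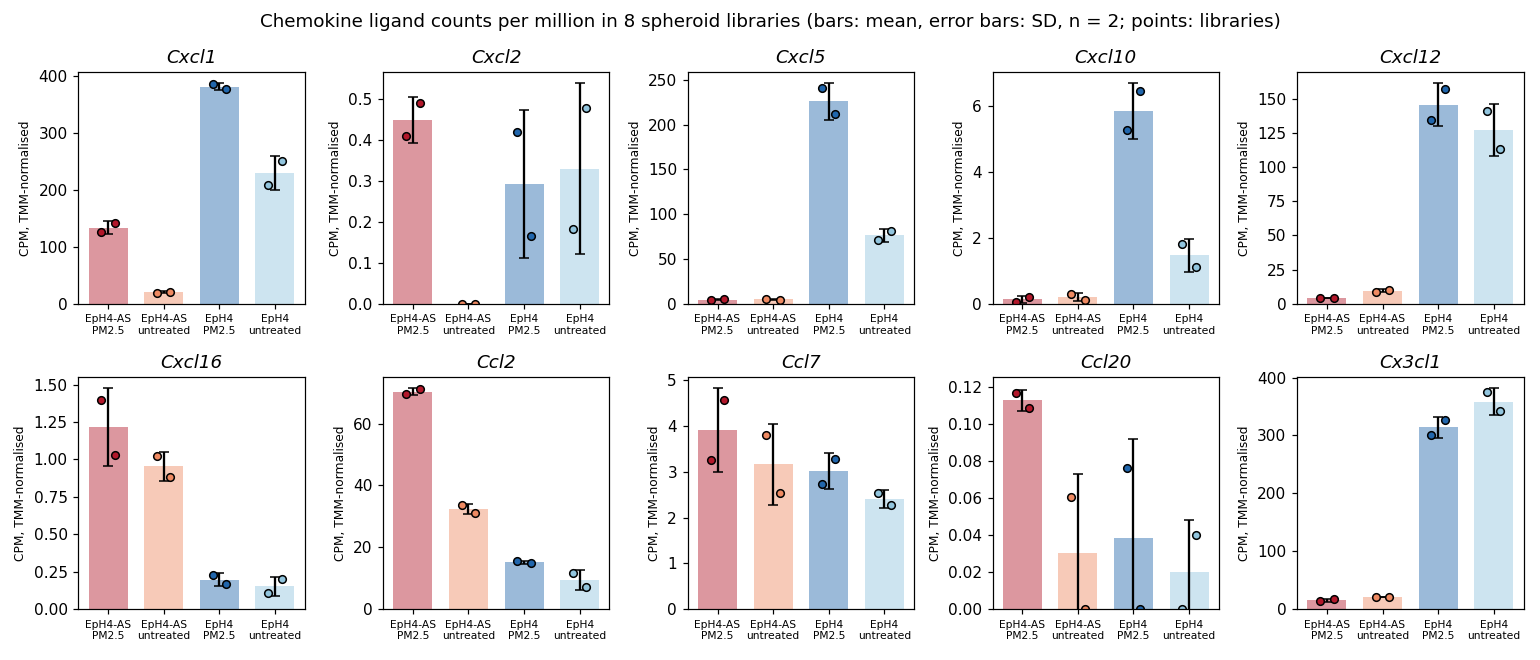
Level of each of the 10 ligands in CPM in the 4 groups, each panel on its own linear axis from 0. Bars are means, error bars SD over n = 2, and points the single libraries; Cxcl1, Cxcl5, Cxcl12 and Cx3cl1 reach over 100 CPM in EpH4 with PM2.5, and Ccl2 and Cxcl16 are higher in EpH4-AS.

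For PM2.5 in EpH4-AS, 9 of the 10 ligands passed the filter, of which 3 were called higher (Cxcl1, Cxcl2 and Ccl2), 2 lower (Cxcl12 and Cx3cl1) and 4 were not called. Over all genes 11.1% were called in this comparison, 6.39% higher and 4.75% lower, and the median log2 fold change was 0.31 for the 9 ligands, against 0.00 for all genes tested. That 0.31 is the value of Ccl7, which was not called and whose libraries overlapped between the groups. In EpH4, 4 of 9 were called higher (Cxcl1, Cxcl5, Cxcl10 and Ccl2), 1 lower (Cx3cl1) and 4 were not called, where 27.2% of all genes were called, 14.3% higher and 12.9% lower. The median was 0.37 for the ligands and 0.00 for all genes. That 0.37 is the value of Cxcl16, which had 10 counts with PM2.5 and 8 untreated in EpH4. For the interaction, 2 of 9 were called higher (Cxcl1 and Cxcl2) and 2 lower (Cxcl5 and Cxcl12), where 14.1% of all genes were called, 7.60% higher and 6.49% lower. The call of Cxcl2 there was lost without any 1 EpH4-AS library and with a replicate block (adjusted p = 0.059). Leukocyte markers were called higher with PM2.5 in EpH4 for 2 of 5 tested (Cd68 and S100a8), where 14.3% of all genes were. In EpH4-AS it was 0 of 5, where 6.39% of all genes were. Of these 5, S100a8 had 0 counts in both EpH4-AS groups, and Adgre1 had 1 with PM2.5 and 0 untreated. Those 2 passed the filter through EpH4 and could hardly be called in EpH4-AS, so the lines cannot be compared by these counts. Of the list of 10, 2 to 5 were at 0 in a group. The whole list summed to 42.1 to 43.2 CPM in EpH4-AS with PM2.5, 39.9 to 41.1 CPM in untreated EpH4-AS, 253 to 300.3 CPM in EpH4 with PM2.5 and 229 to 242 CPM in untreated EpH4, of which Cd68 and Cd14 made up most. Ptprc, the defining leukocyte surface marker, averaged at most 0.0364 CPM in any group, and Cd3e was at 0 in all libraries.

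**Figure D3:**
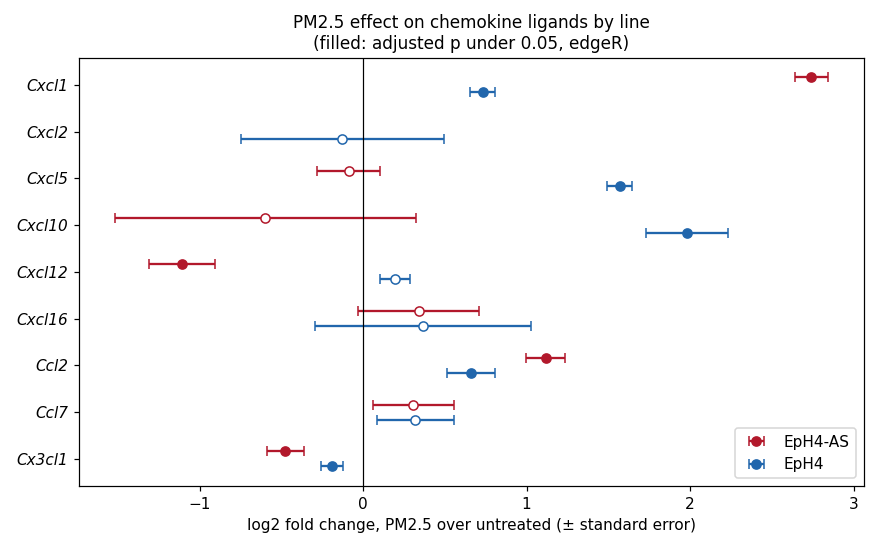
Log2 fold change of PM2.5 over untreated (x axis) for the ligands tested, with standard errors; red is EpH4-AS, blue is EpH4, and filled points passed an adjusted p of 0.05. Cxcl1 stands at 2.74 in EpH4-AS and 0.73 in EpH4, Cxcl5 at -0.09 and 1.57; Cxcl2 in EpH4-AS is left out because its fitted fold against 0 counts has no meaning as a size, and Ccl20 was not tested.

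Between the lines, 6 of 9 ligands were lower in untreated EpH4-AS than in untreated EpH4 and 2 were higher, where 89.2% of all genes were called, 43.6% higher and 45.7% lower, so the count is close to the background. Cx3cl1 averaged 21.04 ± 0.557 CPM in untreated EpH4-AS and 358 ± 23.6 CPM in untreated EpH4 (log2 -4.09 ± 0.09). Cxcl5 was at 4.80 ± 0.531 and 76.3 ± 7.18 CPM in these groups (log2 -3.98 ± 0.12), Cxcl12 at 9.52 ± 1.12 and 127 ± 19.3 CPM (log2 -3.74 ± 0.13), and Cxcl1 had log2 -3.52 ± 0.10. Cxcl10 had log2 -2.74 ± 0.52. Cxcl2, with 0 counts in untreated EpH4-AS and 17 in untreated EpH4, was 3.49-fold lower against the floor of 3 counts, with the 17 taken as exact. The 2 that were higher in EpH4-AS were Ccl2 (log2 1.76 ± 0.14) and Cxcl16 (log2 2.61 ± 0.51). Ccl7 was not called (log2 0.40 ± 0.25, adjusted p = 0.146). The libraries of the 2 lines also differed without overlap in total counts and in the share of reads outside annotated exons. That share was 3.39 to 3.59% in EpH4-AS and 11.3 to 12.5% in EpH4. The part of these library differences in the line comparisons was not tested.

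With PM2.5 in both lines, 5 of 9 were lower in EpH4-AS and 2 higher, where 89.0% of all genes were called, 43.5% higher and 45.5% lower. Cxcl1 then stood at log2 -1.51 ± 0.08 in EpH4-AS over EpH4, and Cxcl5 at -5.64 ± 0.11. Cxcl10 was at -5.32 ± 0.43, Cxcl12 at -5.04 ± 0.14 and Cx3cl1 at -4.37 ± 0.09, against 2.21 ± 0.13 for Ccl2 and 2.58 ± 0.46 for Cxcl16. Cxcl2 was not called with PM2.5 (log2 0.59 ± 0.63, adjusted p = 0.382). Every value called in these 2 comparisons had the same direction in each of the alternatives run.

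Per length, the 10 ligands summed to 223 ± 15.01 RPKM in EpH4-AS with PM2.5, 71.4 ± 0.900 RPKM in untreated EpH4-AS, 559.7 ± 5.02 RPKM in EpH4 with PM2.5 and 347 ± 13.2 RPKM in untreated EpH4 (SD, n = 2). RPKM values, made by the authors, scale reads to exon length and library size and so allow levels of different genes to be set side by side. Cxcl1 supplied 58.5 ± 1.04% of the sum in EpH4-AS with PM2.5, against 27.96 ± 2.81% in untreated EpH4-AS. Ccl2 supplied 36.01 ± 1.62% in EpH4-AS with PM2.5, against 52.8 ± 1.53% in untreated EpH4-AS, so Cxcl1 led the sum with PM2.5 and Ccl2 led it without. In EpH4, Cxcl1 led in both groups, with 59.3 ± 0.0782% with PM2.5 and 57.4 ± 4.44% untreated. Second there was Cxcl5 with PM2.5 (21.2 ± 1.53%, against 11.5 ± 0.456% untreated) and Cx3cl1 untreated (12.5 ± 0.960% with PM2.5, against 23.0 ± 2.77% untreated). Ccl2 was 2.76 ± 0.0402% and 2.82 ± 1.10% of the sum in EpH4 with and without PM2.5. These shares are parts of a whole, so a rise of 1 ligand lowers the shares of the others.

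**Figure D4:**
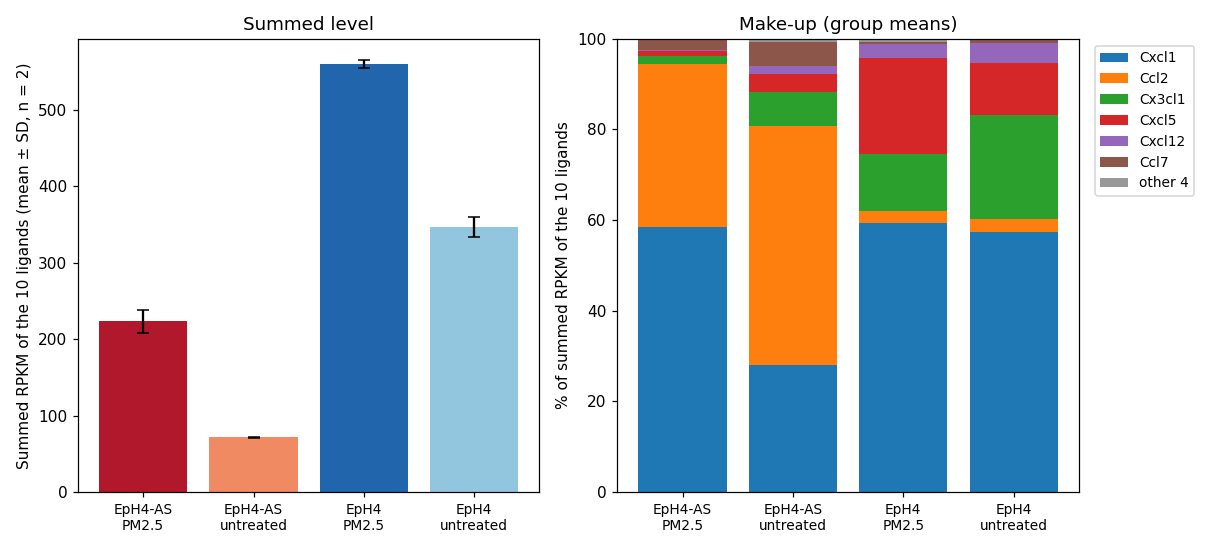
Left, summed RPKM of the 10 ligands in each group (bars, mean; error bars, SD, n = 2). Right, percent of that sum from each ligand (group means): Ccl2 makes up 36.01% in EpH4-AS with PM2.5, against 52.8% in untreated EpH4-AS, and under 3% in both EpH4 groups.

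By mean RPKM, EpH4-AS with PM2.5 had Cxcl1 first (131 ± 11.1) and Ccl2 second (80.2 ± 1.78), whereas untreated EpH4-AS had Ccl2 first (37.8 ± 1.57) and Cxcl1 second (19.96 ± 1.76). With PM2.5, Ccl7 (4.53 ± 1.08) and Cx3cl1 (3.77 ± 0.631) came next in EpH4-AS and overlapped between libraries, whereas in untreated EpH4-AS Cx3cl1 (5.36 ± 0.195) lay above Ccl7 (3.73) without overlap. Cxcl5 followed them in both groups. EpH4 with PM2.5 had Cxcl1 (332 ± 2.54), Cxcl5 (119 ± 9.65) and Cx3cl1 (69.9 ± 4.75) in that order, and untreated EpH4 had Cxcl1 (199 ± 23.0), Cx3cl1 (79.6 ± 6.56) and Cxcl5 (39.98 ± 3.10). The libraries of these 3 ligands did not overlap within either EpH4 group. Cxcl12 and Ccl2 followed, at 16.9 ± 1.99 and 15.4 ± 0.363 RPKM in EpH4 with PM2.5, a gap smaller than the spread of Cxcl12, and at 14.7 ± 2.47 and 9.71 ± 3.45 RPKM in untreated EpH4. The lowest 3 in each of the 4 groups were among Cxcl2, Cxcl10, Cxcl16 and Ccl20.

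Of 28 other chemokine ligands, 21 had a count and 9 were tested. With PM2.5, 1 was called higher in EpH4-AS (Cxcl3), and 4 were called higher and 1 lower in EpH4. Over all genes 11.1% were called in EpH4-AS and 27.2% in EpH4. Most of the 9, among them Ccl3, Ccl9, Ccl17 and Ccl25, had at most 4 counts per group in EpH4-AS. They passed the filter through EpH4 and could hardly be called in EpH4-AS, so the 1 of 9 cannot be read against the 11.1%. Those called in EpH4 were Cxcl3, Ccl9 (5.34 ± 1.35 CPM with PM2.5, 1.93 ± 0.200 CPM untreated, log2 1.46 ± 0.24), Ccl3 (log2 2.41 ± 0.60), Ccl5 (log2 0.34 ± 0.12) and, lower, Ccl25 (log2 -0.64 ± 0.20). Ccl3 and Ccl9, macrophage attractants, had 0 or 1 count per library in EpH4-AS. The calls of Ccl5 and Ccl25 were lost with DESeq2 (adjusted p 0.309 and 0.31) and by limma-trend on log2(RPKM + 0.1) (0.43 and 0.144). That of Ccl5 was also lost with a replicate block (0.0577), with 2 groups alone (0.0757) and by limma-trend on log2(RPKM + 1) (0.327). It was lost too without any 1 EpH4-AS library, and without EpH4 PM2.5 replicate 2 (log2 0.19) or untreated replicate 2 (0.30). That of Ccl25 was lost without EpH4 PM2.5 replicate 1 (log2 -0.76), PM2.5 replicate 2 (-0.54) or untreated replicate 1 (-0.58). The call of Ccl3 was lost without EpH4 untreated replicate 2 (log2 1.98). The median log2 fold change was -0.52 in EpH4-AS and 0.34 in EpH4, against 0.00 for all genes in both. The -0.52 is the value of Ccl17, with 3 counts with PM2.5 and 4 untreated, so it is no measure of a fall. Those with more counts in EpH4-AS were Cxcl3, Ccl5 (log2 0.88 ± 0.31, adjusted p = 0.0845) and Ccl27a (-0.17 ± 0.15, adjusted p = 0.545).

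The signalling receptors of the 10 ligands were near 0 in all groups: Cxcr2, Cxcr3, Cxcr4, Cxcr6, Ccr2, Ccr6 and Cx3cr1 averaged at most 0.355 CPM and were not tested. Of 22 receptors listed, 5 were tested. With PM2.5, 1 was called lower in EpH4, near the 27.2% of all genes called, and 0 in EpH4-AS, where 11.1% were. Of the 5, Ccr4 had 3 counts with PM2.5 and 0 untreated in EpH4-AS, and Ccr7 had 15 and 6. This left little room for a call there, so the 0 of 5 cannot be read against the 11.1%. Ackr3, an atypical receptor that binds Cxcl12 and takes it up, averaged 100.6 ± 0.928 CPM in EpH4-AS with PM2.5, 112 ± 1.38 CPM in untreated EpH4-AS, 23.9 ± 4.17 CPM in EpH4 with PM2.5 and 29.9 ± 4.74 CPM in untreated EpH4. It was higher in EpH4-AS in both line comparisons (log2 1.91 ± 0.10 untreated, 2.07 ± 0.10 with PM2.5), the reverse of Cxcl12. Its fall with PM2.5 in EpH4 (log2 -0.32, adjusted p = 0.0446) was lost in several fits, as with a replicate block (adjusted p = 0.0591).

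In the list of 12 tested ligand-processing genes (sheddases, other proteases, tyrosine sulfation and heparan sulfate carriers), 3 were called higher and 2 lower in EpH4-AS, and 6 higher and 3 lower in EpH4, where 11.1% and 27.2% of all genes were called. Their median log2 fold changes were -0.03 and 0.20, against 0.00 for all genes in both lines. Adam10, a sheddase of Cx3cl1 and Cxcl16, was not called in either line, and averaged 281 ± 4.23 CPM in EpH4-AS with PM2.5 and 298 ± 4.86 CPM in untreated EpH4-AS. Adam17 had log2 -0.20 in EpH4 (adjusted p = 0.0296). That call was lost with DESeq2 (adjusted p = 0.0557), 2 groups alone (0.0862) and limma-trend (0.175 and 0.177). Without EpH4 untreated replicate 1 the value was -0.10. Mmp9, a gelatinase that trims chemokines, was at 596 ± 26.2 CPM in EpH4-AS with PM2.5, against 390 ± 22.2 CPM untreated, and at 167 ± 5.25 CPM in EpH4 with PM2.5, against 198 ± 6.41 CPM untreated, with an interaction of log2 0.85 ± 0.08 (adjusted p = 3.6e-05). Sdc1, a heparan sulfate carrier that binds chemokines at the cell surface, had 333 ± 3.69 CPM in EpH4-AS with PM2.5 and 461 ± 13.7 CPM untreated, against 90.8 ± 15.3 CPM with PM2.5 and 64.9 ± 9.34 CPM untreated in EpH4 (interaction log2 -0.95 ± 0.14, adjusted p = 0.000491).

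Of 18 genes of the NF-kB pathway, 11 were called higher and 0 lower in EpH4-AS, where 6.39% of all genes were called higher and 4.75% lower. In EpH4, 9 were called higher and 1 lower, where 14.3% of all genes were called higher and 12.9% lower. The medians were 0.38 and 0.21, against 0.00 for all genes in both lines. For the interaction 9 were called higher and 1 lower, where 7.60% of all genes were called higher and 6.49% lower. Nfkbia, the inhibitor that NF-kB itself induces, averaged 501 ± 5.83 CPM in EpH4-AS with PM2.5, 183 ± 2.17 CPM in untreated EpH4-AS, 137 ± 7.42 CPM in EpH4 with PM2.5 and 89.0 ± 3.72 CPM in untreated EpH4 (interaction log2 0.84 ± 0.08, adjusted p = 3.08e-05). Nfkbiz, a nuclear cofactor of NF-kB, was at 33.1 ± 3.52 CPM in EpH4-AS with PM2.5, against 13.4 ± 0.0314 CPM untreated, and at 115 ± 3.73 CPM in EpH4 with PM2.5 and 106 ± 0.689 CPM untreated (adjusted p = 0.148). Its interaction was 1.18 ± 0.11 (adjusted p = 2.97e-05), and Tnfaip3, a feedback inhibitor, had 0.66 ± 0.08 (adjusted p = 0.000148).

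Of 11 genes that act on the decay of chemokine mRNA, 4 were called higher in EpH4-AS, where 6.39% of all genes were, and 5 in EpH4, where 14.3% were. The medians were 0.13 and 0.21, against 0.00 for all genes in both lines. Zc3h12a (regnase-1), a ribonuclease for inflammatory mRNAs, rose to 77.5 ± 14.2 CPM in EpH4-AS with PM2.5, against 22.2 ± 1.41 CPM untreated, and to 52.2 ± 6.18 CPM in EpH4 with PM2.5, against 38.9 ± 3.60 CPM untreated. The call in EpH4 was lost without PM2.5 replicate 2 (log2 0.30, adjusted p = 0.119) or untreated replicate 2 (0.33, adjusted p = 0.061), and by limma-trend (adjusted p 0.13 and 0.143). Zfp36, which binds AU-rich elements, was at 90.7 ± 6.27 CPM in EpH4-AS with PM2.5, against 48.7 ± 0.0525 CPM untreated, and at 38.0 ± 4.05 CPM in EpH4 with PM2.5 and 32.7 ± 0.411 CPM untreated (adjusted p = 0.0518). The interactions were 1.38 ± 0.17 for Zc3h12a (adjusted p = 0.000162) and 0.68 ± 0.11 for Zfp36 (adjusted p = 0.000885). Over the list of 11, 3 were called higher and 2 lower for the interaction, with a median of -0.03, against 0.01 for all genes. Of all genes 7.60% were called higher and 6.49% lower.

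In the list of 15 tested genes on the interferon route to Cxcl10, 3 were called higher in EpH4-AS, where 6.39% of all genes were, and 7 in EpH4, where 14.3% were. The medians were -0.01 and 0.32, against 0.00 for all genes in both lines, and whether the lines differed over this list was not tested. Irf1, a transcription factor that is also an NF-kB target, was at 166 ± 8.14 CPM in EpH4-AS with PM2.5, against 64.1 ± 0.439 CPM untreated, and at 98.6 ± 1.94 CPM in EpH4 with PM2.5, against 79.0 ± 8.32 CPM untreated. It rose in both lines (log2 1.37 ± 0.07 and 0.32 ± 0.07), and its interaction was 1.05 ± 0.10 (adjusted p = 3.08e-05). Over the list of 15, 2 were called higher and 2 lower for the interaction, with a median of -0.04, against 0.01 for all genes. Of all genes 7.60% were called higher and 6.49% lower. Sting1, the adaptor of cytosolic DNA sensing, was at 0.254 ± 0.0528 CPM in EpH4-AS with PM2.5 and 0.279 ± 0.0533 CPM in untreated EpH4-AS, and at 15.9 ± 0.794 CPM in EpH4 with PM2.5, against 9.72 ± 1.88 CPM in untreated EpH4 (log2 0.70 ± 0.13, adjusted p = 0.0011, and 0.0599 by limma-trend on log2(RPKM + 0.1)).

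Of 13 cytokines and receptors known to induce chemokines, 6 were tested, of which 0 were called in EpH4-AS with PM2.5, and 5 were called higher and 1 lower in EpH4. Over all genes 11.1% were called in EpH4-AS, so 0 of 6 is near the background, and 27.2% in EpH4. Il1a and Il33 had at most 12 counts per group in EpH4-AS, which left little room for a call there. Il1a, an alarmin that induces Cxcl1 and Cxcl5, averaged 9.31 ± 2.12 CPM in EpH4 with PM2.5, against 2.68 ± 0.0719 CPM untreated, and at most 0.0875 CPM in EpH4-AS. Il33 was at 286 ± 2.32 CPM in EpH4 with PM2.5, against 181 ± 30.4 CPM untreated (adjusted p = 0.000114, and 0.129 by limma-trend on log2(RPKM + 0.1)), and at most 0.336 CPM in EpH4-AS. Il17rc, a subunit of the receptor for interleukin 17, rose in EpH4 to 37.6 ± 1.99 CPM with PM2.5, against 18.3 ± 2.55 CPM untreated, and was at 22.2 ± 0.140 CPM with PM2.5 and 22.4 ± 0.750 CPM untreated in EpH4-AS (interaction log2 -1.05 ± 0.13, adjusted p = 0.000219).

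The genes whose levels ran most like those of a ligand were ranked by the Euclidean distance of centred log2 CPM over the 8 libraries, among 10831 genes at 5 CPM or more in a group. Nearest to Cxcl1 were Nfkbiz (distance 1.60), Slc7a11 (1.67) and Lif (1.72). Nearest to Cxcl5 was the chemokine Ccl9 (0.800), to Cxcl10 Slco4a1 (1.21), to Cxcl12 Ankrd6 (0.433), to Ccl2 Mcf2l (0.798) and to Cx3cl1 Slc9b1 (0.287). The distances of Cxcl1 and Cxcl10 to their nearest gene were larger than those of the other 4 ligands ranked. The line difference is part of each distance, since 4 libraries of each line entered.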

How the data were processed

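Raw counts of reads per gene and RPKM values were made and deposited by the authors on GRCm39, per the submitters' processing notes. Libraries came from a stranded mRNA kit with 750 ng of total RNA, per the labels' protocols. The sources used here name no aligner, counting tool, use of strand in counting or annotation. The RPKM values were scaled by the authors to exon length and library size, and the authors' tables per library also held reads assigned to the whole gene.

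The 10 ligands and all gene lists were chosen with earlier results of these data known. Of 19932 genes with a count, 13716 passed filterByExpr and held 99.964% of counts. They were fitted with edgeR 4.0.16 (R 4.3.3; TMM, quasi-likelihood, model of 4 group means) over all 8 libraries, for 5 comparisons, each adjusted by Benjamini-Hochberg, two-sided. Standard errors were derived from the test, as log2 fold change divided by the root of F, without sign. The common dispersion of 0.00218 is a biological coefficient of variation of 4.67%. The steps were tested on simulated data. Intervals cover counting error only, and the floor of 3 counts covers only that of the group with 0 counts.

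All 10 ligands were named. Other ligands and receptors were eligible if called with PM2.5 or at 1 CPM or more in a group. Each other list had up to 4 eligible genes, by smallest p with PM2.5, with Nfkbia, Tnfaip3, Zc3h12a, Adam10, Adam17 and Irf1 among those always eligible. An eligible gene is not reported here. Signalling receptors of the ligands, marker genes and the low neighbours in the 2 clusters were named after their values were seen.

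The 17 other settings were the DESeq2 1.42.0 Wald test, DESeq2 size factors, library totals, no filter, 1 CPM in 2 libraries, a replicate block, 2 groups alone, limma 3.58.1 trend on log2(RPKM + 1) and log2(RPKM + 0.1), and each library left out. A crossed replicate block was chosen after seeing the data. Where leaving out 1 library left 1 in its group, that library was taken to vary as much as those of other groups.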

Additional observations from a re-analysis of the deposited data

Results flagged for a closer look

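The PM2.5 effect differed between EpH4-AS and EpH4, by the interaction test, for 4 ligands. As log2 difference (effect in EpH4-AS minus effect in EpH4), Cxcl1 had 2.01 and Cxcl5 -1.66, so the 2 neutrophil ligands of 1 gene cluster differed in opposite directions. Cxcl12 had -1.30. Cxcl2 had 6.41, a fitted value against a group with 0 counts that is no measure of size. Cxcl1, Cxcl5 and Cxcl12 kept their calls in each fit that left out 1 library, and Cxcl2 lost its call without any 1 of the 4 EpH4-AS libraries.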

How the results depend on the processing

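No direction of a called ligand turned under any alternative. The number of ligands called, 5 for PM2.5 in EpH4-AS, was 2 by limma-trend on log2(RPKM + 1) and 2 to 4 with 1 library left out. The 5 in EpH4 became 3 by limma-trend with either pseudocount and 4 to 5 with 1 library left out. Between untreated lines (8) the range with 1 library left out was 7 to 9, between exposed lines (7) 7 to 8, and for the interaction (4) 3 to 4. Counts over all genes moved more: 1529 for PM2.5 in EpH4-AS became 992 by DESeq2, 969 by limma-trend on log2(RPKM + 0.1), 2995 with 2 groups alone and 363 to 2088 with 1 library left out. The 3726 in EpH4 became 2211 by DESeq2, 2245 by limma-trend on log2(RPKM + 0.1) and 2145 to 3987 with 1 library left out. The 1932 for the interaction became 1248 by DESeq2, 1244 and 965 by limma-trend and 875 to 2621 with 1 library left out. The cause of these moves was not tested.

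Same-numbered libraries did not deviate together (correlations of deviations -0.101 to 0.0646), so the numbers were not taken to pair the samples. With a replicate block 5, 4, 8, 7 and 3 ligands were called in the 5 comparisons, and 1252 genes for PM2.5 in EpH4-AS, 3258 in EpH4 and 1580 for the interaction. A crossed pairing in EpH4, chosen after seeing the data, called 6 ligands and 4504 genes. The interaction cannot be taken from 2 groups alone. Counts of 0 to 17 per group limit Cxcl2, Ccl20, in EpH4-AS Cxcl10 and in EpH4 Cxcl16.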

Other observations

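The authors' tables per library also gave reads assigned to the whole gene, from which the share outside annotated exons was taken, with 95% Wilson intervals for counting error. For Cxcl1 this share was 10.9% (9.74 to 12.2%) and 11.4% (10.3 to 12.6%) in EpH4-AS with PM2.5 and 11.02% (8.16 to 14.7%) and 11.6% (8.76 to 15.2%) in untreated EpH4-AS. It was 2.61% (2.32 to 2.93%) and 2.79% (2.48 to 3.15%) in EpH4 with PM2.5 and 4.13% (3.65 to 4.66%) and 4.04% (3.59 to 4.54%) in untreated EpH4. Over all genes the order of the lines was the reverse: 3.42 to 3.59% in EpH4-AS with PM2.5, 3.39 to 3.54% in untreated EpH4-AS, 11.4 to 12.5% in EpH4 with PM2.5 and 11.3 to 12.3% in untreated EpH4. The intervals for Cxcl1 with and without PM2.5 overlapped in EpH4-AS, the line with the larger fold rise of its exon counts, and the share was lower with PM2.5 in both EpH4 libraries. For Cxcl5 in EpH4 it was 7.22% and 8.17% with PM2.5 and 12.04% and 10.9% untreated. What these reads are was not tested.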
